A study of Citrus maxima with 12 samples.

Results

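The table of pomelo (Citrus maxima) fruit transcripts holds 32863 gene IDs, of which 2740 begin with NewGene and 30123 with Cg. The loci described here are the 184 NewGene IDs whose mean was 20 FPKM or more over 11 libraries, all but the one labelled Taoxi control 1. FPKM is a fragment count divided by the length of the gene and by the size of the library. The loci were chosen by their measured FPKM, so their level is given as a description and with no test. Fruit of 3 cultivars was sequenced in a study of a black spot disease affecting Jinggang honey pomelo. The 4 groups were Taoxi control fruit, Taoxi diseased fruit, Jinlan diseased fruit and Jinsha diseased fruit, with 3 libraries each. For Jinlan and Jinsha no control library was analysed here, so cultivar and response to disease cannot be told apart between cultivars. The labels name no age, tree or fruit for a library, and the spread behind each p-value is that of these libraries and may be technical.

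In many RNA sequencing pipelines, reads that align outside the annotated genes are assembled into transcribed loci, and such loci receive running IDs of their own. Loci found this way can be protein-coding genes that a genome annotation missed, long non-coding RNAs, transcribed transposable elements or pieces of neighbouring genes. A genome annotation is made on 1 reference plant, and genes that differ between cultivars are among those it can miss. The sources used here do not say how these NewGene IDs were made. No ID is paired in the table with a name, a description or a position, so the loci are given by ID, and the labelled tissue could not be checked against marker genes.

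Fewer NewGene IDs than Cg IDs, as a share, were abundant. Of the NewGene IDs, 6.72% reached a mean of 20 FPKM, against 19.6% of the Cg IDs (5891). At 0 in all 12 libraries were 1.82% of the NewGene IDs and 24.4% of the Cg IDs. All 184 loci passed the filter used for testing, at least 1 FPKM in 3 libraries. Their means ran from 20.03 to 1059 FPKM with a median of 43.7 FPKM. There were 104 at 20 to 50 FPKM, 42 at 50 to 100 FPKM, 27 at 100 to 200 FPKM and 11 at 200 FPKM or more. Together they held 2.48% to 2.79% of the FPKM of a library. Just inside the threshold stood NewGene_1790 at a mean of 20.03 FPKM and NewGene_77 at 20.2 FPKM. Just outside it stood NewGene_2629 and NewGene_822, both at 19.2 FPKM.

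The mean of a locus did not always stand for all groups. The group mean was 20 FPKM or more in all 4 groups for 115 loci, in 3 groups for 38, in 2 groups for 30 and in 1 group for 1, with Taoxi control taken from libraries 2 and 3. These were 62.5%, 20.7%, 16.3% and 0.543% of the loci. For the 5891 Cg IDs at this level the shares were 73.8%, 13.0%, 12.5% and 0.730%. For 21 loci (11.4%) the mean of the remaining libraries fell below 20 FPKM once a single group was left out, as it did for 510 of the 5891 Cg IDs at this level (8.66%). Such loci entered through the groups in which they are high, though close to the threshold a small difference is enough. Without their highest library, 6 of the 184 fell below 20 FPKM. NewGene_4278, one of these, was at 32.9 FPKM in Taoxi disease 3 and at 15.7 to 23.96 FPKM in the other 10 libraries of the rule. NewGene_4091 and NewGene_77 also fell below 20 FPKM without their highest library, and both lay close to the threshold.

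The library labelled Taoxi control 1 stood apart from its group at these loci, as it did at the Cg IDs. Across the 184 loci its log2(FPKM + 1) correlated with Taoxi control libraries 2 and 3 at 0.547 and 0.576 (Pearson's r across loci, which are not replicates). It correlated at 0.591 to 0.646 with diseased Taoxi, at 0.870 to 0.887 with diseased Jinsha and at 0.917 to 0.924 with diseased Jinlan. Taoxi control libraries 2 and 3 correlated with each other at 0.990. At 27 loci diseased Jinlan differed at least 4-fold from Taoxi control libraries 2 and 3 on the log2(FPKM + 1) scale. On a scale from 0 (those controls) to 1 (diseased Jinlan), Taoxi control 1 lay at a median of 0.862 (quartiles 0.668 and 0.917), and beyond the midpoint at 25 of them. The same scale over the 417 Cg IDs at 20 FPKM or more with such a difference gave a median of 0.798, with 396 beyond the midpoint. The library stayed in its labelled group, and each result that holds it is also given without it.

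**Figure D1:**
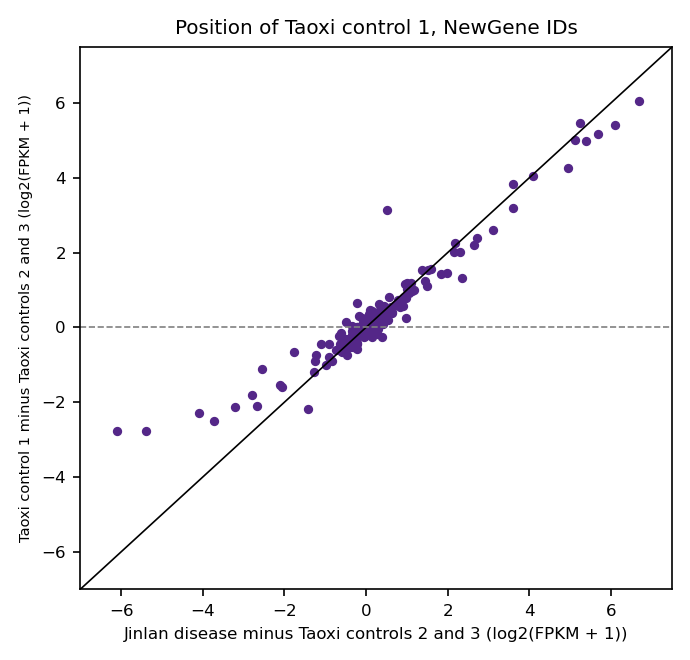
Difference of Taoxi control 1 from the mean of Taoxi control libraries 2 and 3 (vertical axis) against the same difference for diseased Jinlan (horizontal axis), both in log2(FPKM + 1), with 1 point for each of the 184 loci. The solid line marks equal differences and the dashed line no difference; points to the right mostly lie nearer to the solid line than to the dashed one, NewGene_1669 and NewGene_2698 at the far left lie about midway between the lines, and NewGene_240 lies far above both.

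At NewGene_240 this library lay outside the range of all others. The locus was at 595 FPKM in Taoxi control 1, at 70.9 and 61.6 FPKM in Taoxi control libraries 2 and 3, and at 65.4, 49.9 and 52.9 FPKM in diseased Taoxi. Diseased Jinlan held it at 100.7, 95.3 and 88.2 FPKM, and diseased Jinsha at 220, 367 and 304 FPKM. This locus was picked after its values were seen. The 3 loci at which Taoxi control 1 lay farthest from the other controls were NewGene_3240, NewGene_4110 and NewGene_3937, described below.

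The most abundant locus was NewGene_116, 16th among all IDs by mean level. It was at 1372, 1176 and 850 FPKM in the Taoxi controls, at 933, 1156 and 1231 FPKM in diseased Taoxi, at 1350, 1289 and 1274 FPKM in diseased Jinlan and at 887, 690 and 813 FPKM in diseased Jinsha. Jinsha was the lowest group and did not overlap with Jinlan, while the Taoxi groups overlapped. NewGene_1521, the next, was at 1945 and 1893 FPKM in Taoxi control libraries 2 and 3 and at 546 FPKM in Taoxi control 1. Diseased Taoxi held it at 1138, 1189 and 1331 FPKM, Jinlan at 275, 268 and 279 FPKM and Jinsha at 176, 182 and 167 FPKM. Its level was thus highest in Taoxi and lowest in Jinsha, and no library of one cultivar overlapped with another.

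NewGene_1048 had a mean of 739.9 FPKM and stood between 474 and 1056 FPKM in every library. NewGene_1109 had a mean of 455 FPKM and was low in 2 libraries, Taoxi control libraries 2 and 3, at 198 and 108 FPKM. It stood at 395 FPKM in the library Taoxi control 1, while it was at 434 to 744 FPKM in all diseased libraries. NewGene_1362 had a mean of 396 FPKM and ran from 308 FPKM in a Jinsha library to 474 FPKM in a Jinlan library. It was lower in Jinsha, at 322 ± 12.2 FPKM, than in diseased Taoxi, at 426 ± 26.7 FPKM, and in Jinlan, at 449 ± 21.6 FPKM (SD, n = 3, limma adjusted p = 0.000716 and 0.0006).

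With all levels pooled, these loci and the Cg IDs had the same median range over the groups. The difference between the highest and the lowest group mean of log2(FPKM + 1) had a median of 0.70 over the 184 loci (quartiles 0.44 and 1.36) and of 0.70 over the 5891 Cg IDs (quartiles 0.42 and 1.22). The loci had band medians of 0.70, 0.76, 0.53 and 0.58, from 20 to 50 FPKM up to 200 FPKM or more. Those of the Cg IDs were 0.67, 0.71, 0.75 and 0.85. From 100 FPKM upward the loci thus had the smaller median. In the upper tail the shares lay further apart. A difference of 2 log2 units or more was found for 32 loci (17.4%) and for 10.5% of the Cg IDs, and one of 3 or more for 22 loci (11.96%) and for 4.45% of the Cg IDs. In the band of 20 to 50 FPKM, 13.5% of 104 loci and 3.71% of 3400 Cg IDs reached 3 log2 units. From 50 to 100 FPKM it was 9.52% of 42 loci and 5.24% of 1392 Cg IDs, and from 100 to 200 FPKM it was 11.1% of 27 loci and 5.87% of 682 Cg IDs. At 200 FPKM or more it was 9.09% of 11 loci, which is 1 locus, and 5.52% of 417 Cg IDs. At 2 log2 units this band went the other way, with 9.09% of the loci and 13.9% of the Cg IDs. In each lower band the loci had the larger share at 2 log2 units. At 1 log2 unit the loci had the smaller share in both bands from 100 FPKM upward, with 25.9% against 36.8% from 100 to 200 FPKM. Below 100 FPKM they had the larger share at 1 log2 unit in both bands. These shares are descriptions of the table, and their difference was not tested.

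**Figure D2:**
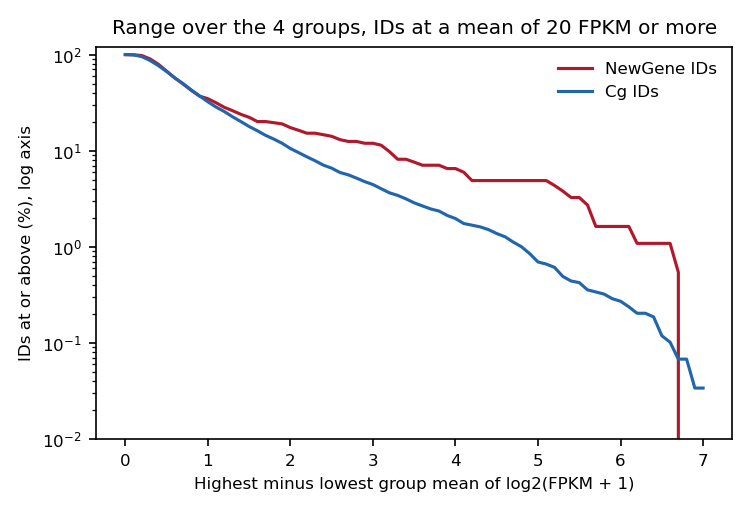
Percentage of IDs (vertical log axis) whose highest group mean exceeded the lowest by at least the value on the horizontal axis (log2(FPKM + 1), Taoxi control from libraries 2 and 3), for the 184 NewGene loci and for the 5891 Cg IDs at a mean of 20 FPKM or more. The curves run together up to about 1 log2 unit, and at 3 units stand at 11.96% and 4.45%.

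With all levels pooled, replicate libraries spread slightly more at these loci than at the Cg IDs. The median coefficient of variation was 5.498% in diseased Jinlan, 6.17% in diseased Jinsha and 9.58% in diseased Taoxi, against 4.69%, 5.38% and 7.40% for the Cg IDs. In Taoxi control it was 17.7% with all 3 libraries and 6.90% with libraries 2 and 3, against 17.1% and 5.57%. Below 100 FPKM the loci had the larger median in every group. At 200 FPKM or more (11 loci) theirs was smaller in diseased Jinlan, 3.48% against 4.74%, and in diseased Jinsha, 3.78% against 6.02%. It was also smaller in Taoxi control libraries 2 and 3, 4.81% against 6.21%, and larger in diseased Taoxi, 11.3% against 9.95%. From 100 to 200 FPKM it was smaller in diseased Jinsha, 5.02% against 5.24%.

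The steadiest loci stayed level in all cultivars. NewGene_1128 was between 95.7 and 133 FPKM in every library, with a difference of 0.08 log2 units between its highest and lowest group means. NewGene_814 was between 48.0 and 68.1 FPKM, with a difference of 0.13, and NewGene_4322 between 24.01 and 33.1 FPKM, with a difference of 0.18. These 3 loci were chosen for the smallest such differences, so the test adds no support. None of them passed in any comparison below (limma adjusted p of 0.071 or more).

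**Figure D3:**
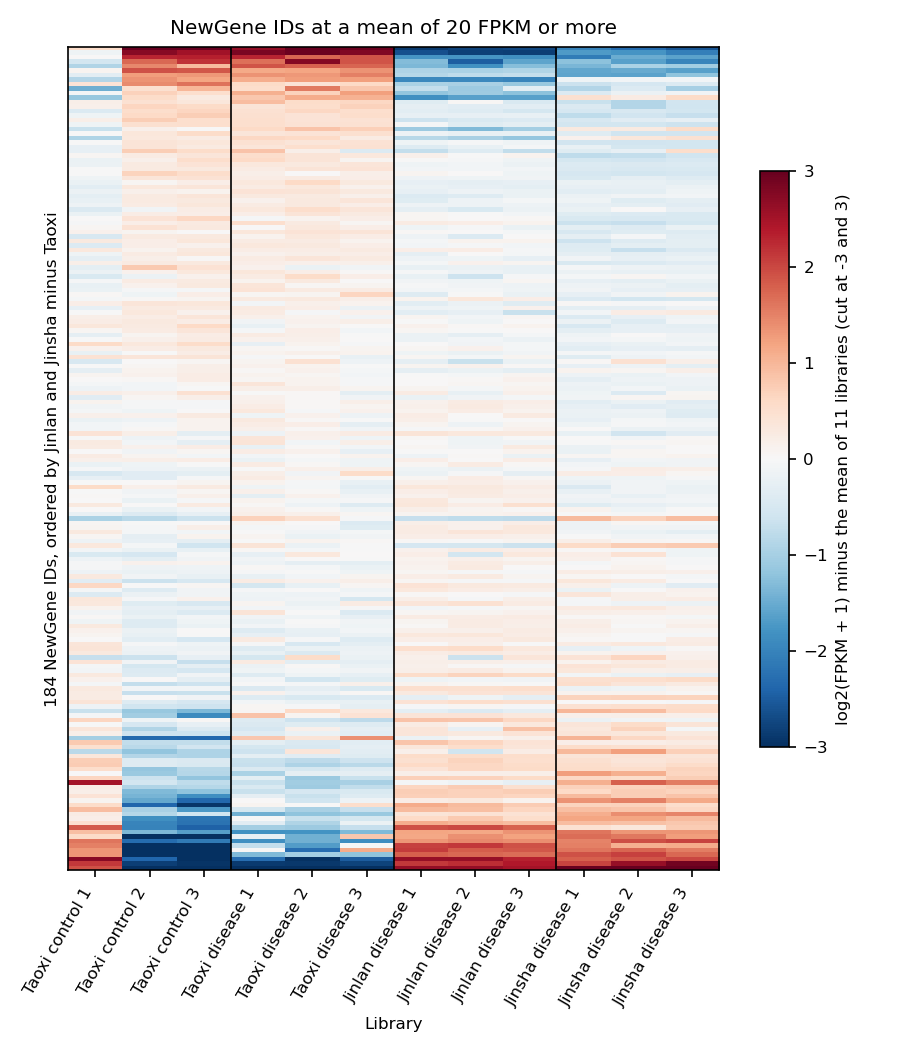
Level of each of the 184 loci (rows) in each of the 12 libraries (columns) as log2(FPKM + 1) minus the mean of the 11 libraries of the rule, with colours cut at -3 and 3. Rows are ordered by the mean of Jinlan and Jinsha minus that of Taoxi without Taoxi control 1; the strong colours lie at the top and bottom, and there Taoxi control 1 has the colours of Jinlan and Jinsha or lies between them and Taoxi.

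Diseased and control fruit were compared within Taoxi. In bulk fruit tissue, fewer cells of a type and less RNA per cell cannot be told apart. Of the 184 loci, 12 rose and 10 fell with disease at an adjusted p below 0.05 by limma, 11.96% together, where 7.89% of all 17421 IDs tested passed, 4.46% higher and 3.43% lower, and 10.1% of the Cg IDs at 20 FPKM or more. The median log2 difference was 0.10 over the loci, 0.05 over those Cg IDs and -0.01 over all IDs tested. At least 2-fold were 4 of the rises and none of the falls, where 1.11% and 0.614% of all IDs tested rose and fell that far. Of the 5890 Cg IDs tested at 20 FPKM or more, 49 rose and 28 fell that far. No fall reached 2-fold at an unadjusted p below 0.05 either. When only the 6 Taoxi libraries were fitted no locus passed (limma, lowest adjusted p = 0.109), while 20 were higher and 13 lower at an unadjusted p below 0.05. Single libraries moved these counts: 5 rose and 4 fell without Taoxi disease 1, 7 and 2 without Taoxi disease 2, 6 and 2 without Taoxi disease 3, and 5 fell without Taoxi control 3.

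The largest rise was that of NewGene_4405. Taoxi control held it at 12.8, 4.598 and 4.48 FPKM and diseased Taoxi at 48.1, 35.6 and 72.1 FPKM, so that the groups did not overlap. This came to a difference of 2.76 log2 units (SE 0.35, adjusted p = 0.00291). Diseased Jinlan held it at 23.9, 28.4 and 30.0 FPKM and diseased Jinsha at 55.6, 42.4 and 36.3 FPKM. All diseased libraries were therefore above all Taoxi controls. NewGene_1109, given above, had the next largest rise, from 234 ± 147 to 578 ± 156 FPKM (SD, n = 3), 1.47 log2 units (SE 0.37, adjusted p = 0.0387 by limma). Its adjusted p rose to between 0.0602 and 0.131 when any single Taoxi library other than Taoxi control 1 was left out (limma).

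The largest falls were smaller than 2-fold. NewGene_533 was at 48.2, 22.0 and 26.5 FPKM in the 3 Taoxi controls and at 14.3, 16.9 and 17.97 FPKM in diseased Taoxi, with no overlap. The groups differed by -0.86 log2 units (SE 0.23, adjusted p = 0.0476), and with the replicate number as a block the adjusted p was 0.0867. It missed the threshold without Taoxi control 3 and without each diseased Taoxi library in turn (limma adjusted p of 0.0625 to 0.151). Diseased Jinlan and Jinsha held it at 54.3 ± 0.81 and 103 ± 13.9 FPKM (SD, n = 3). NewGene_805 was at 39.2, 22.4 and 25.1 FPKM in control and at 18.7, 15.7 and 13.9 FPKM in diseased fruit, or -0.77 log2 units (SE 0.18, adjusted p = 0.0291 by limma). Its adjusted p was 0.0854 without diseased Taoxi 2 and 0.102 without diseased Taoxi 3 (limma). In both falls Taoxi control 1 was the highest control. Without it the rises were 3.20 log2 units for NewGene_4405 and 1.94 for NewGene_1109 (limma adjusted p = 1.83e-05 and 0.000234), and both falls were -0.54 log2 units (limma adjusted p = 0.00759 for NewGene_533 and 0.00466 for NewGene_805).

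Without Taoxi control 1, 43 loci were higher and 21 lower in diseased Taoxi, 34.8% together, where 30.0% of all 17362 IDs tested (18.9% higher and 11.1% lower) and 38.5% of the Cg IDs at 20 FPKM or more passed. The median log2 difference was then 0.066 over the loci, 0.061 over those Cg IDs and 0.041 over all IDs tested. All 12 rises and all 10 falls found with every control were also found without Taoxi control 1. Of the 64 loci, 6 had the opposite sign in the fit with every control. Among the rises 14 were at least 2-fold, and among the falls none was, also at an unadjusted p below 0.05 (limma). Of all IDs tested 3.29% rose and 1.17% fell that far, as did 185 and 58 of the 5890 Cg IDs tested. At 10 of these 14 loci, chosen for lying above Taoxi control libraries 2 and 3, the level in diseased Taoxi lay between that in Taoxi control libraries 2 and 3 and those in both other cultivars, as it did at 44 of all 184 loci. By that choice the 14 loci met the lower bound, which not all 184 do, so these shares are not alike. Taoxi control 1 was above both other controls at 13 of the 14, a count favoured by choosing loci low in those controls. Diseased Taoxi 2 was the lowest diseased Taoxi library at 11. Neither count was taken over all 184 loci. The part of any 1 library in these rises was not tested.

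NewGene_3240 had the largest of these rises. It was at 0.142 and 0.0444 FPKM in Taoxi control libraries 2 and 3, at 72.2 FPKM in the library Taoxi control 1, while it was at 28.9, 5.02 and 62.2 FPKM in diseased Taoxi. Diseased Jinlan held it at 126, 103 and 106 FPKM and diseased Jinsha at 88.2, 97.1 and 83.7 FPKM. The 3 diseased Taoxi libraries thus lay between Taoxi control libraries 2 and 3 and the other cultivars, and spread widely. The log2 fold change was 4.36 without Taoxi control 1 (SE 0.69, adjusted p = 0.000951 by limma) and 2.34 with it (SE 1.40, adjusted p = 0.344 by limma). NewGene_4511 was at 0.574 and 0.698 FPKM in Taoxi control libraries 2 and 3, at 30.4 FPKM in the library Taoxi control 1, while it was at 17.0, 6.78 and 36.4 FPKM in diseased Taoxi. Its order over the diseased Taoxi libraries was that of NewGene_3240. The log2 fold change was 3.41 without Taoxi control 1 (SE 0.46, adjusted p = 0.000377 by limma) and 1.99 with it (SE 0.98, adjusted p = 0.250 by limma).

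The largest falls without Taoxi control 1 were those of NewGene_3942 and NewGene_2975. NewGene_3942 was at 100.1 and 115 FPKM in Taoxi control libraries 2 and 3 and at 55.6, 49.5 and 56.0 FPKM in diseased Taoxi, or -0.99 log2 units (SE 0.09, adjusted p = 5.53e-05 by limma). In Taoxi control 1 it stood at 49.3 FPKM, below every diseased Taoxi library, and with that library the adjusted p was 0.156 (limma). Diseased Jinlan and Jinsha held it at 17.6 ± 1.18 and 25.4 ± 2.01 FPKM (SD, n = 3). NewGene_2975 was at 40.3 and 31.2 FPKM in Taoxi control libraries 2 and 3 and at 25.4, 19.7 and 21.1 FPKM in diseased Taoxi, or -0.67 log2 units (SE 0.11, adjusted p = 0.00154 by limma). It was at 18.6 FPKM in Taoxi control 1, and the adjusted p was 0.327 with that library (limma). All other libraries held it at 19.5 to 21.8 FPKM.

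**Figure D4:**
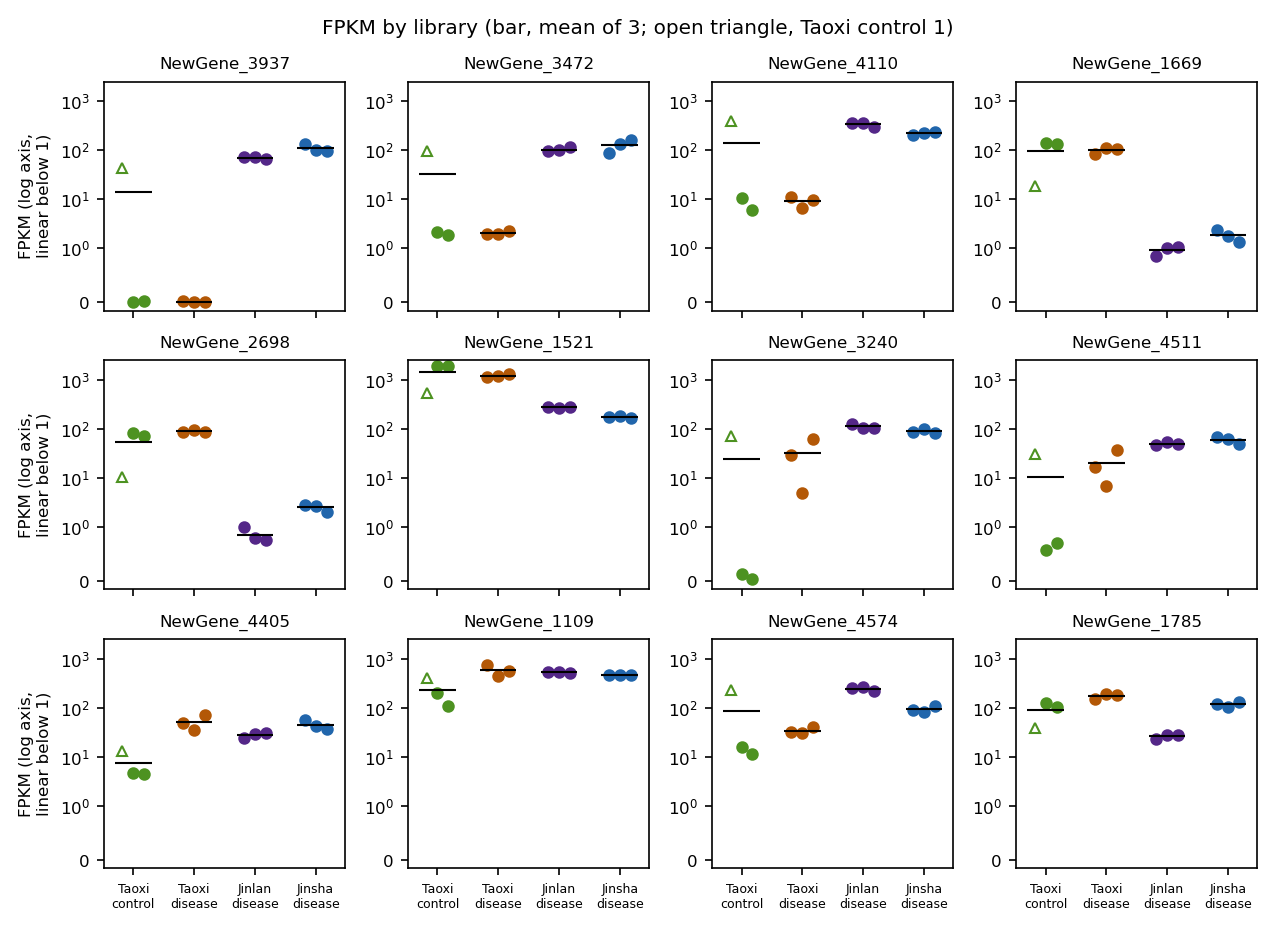
FPKM of 12 loci named in the text in each library (log axis, linear below 1), by group; dots are libraries, open triangles Taoxi control 1 and bars the mean of the 3 libraries. NewGene_3937, NewGene_3472 and NewGene_4110 are low in Taoxi apart from the triangle, NewGene_1669, NewGene_2698 and NewGene_1521 are high there, and in NewGene_3240 and NewGene_4511 the diseased Taoxi libraries lie between.

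**Figure D5:**
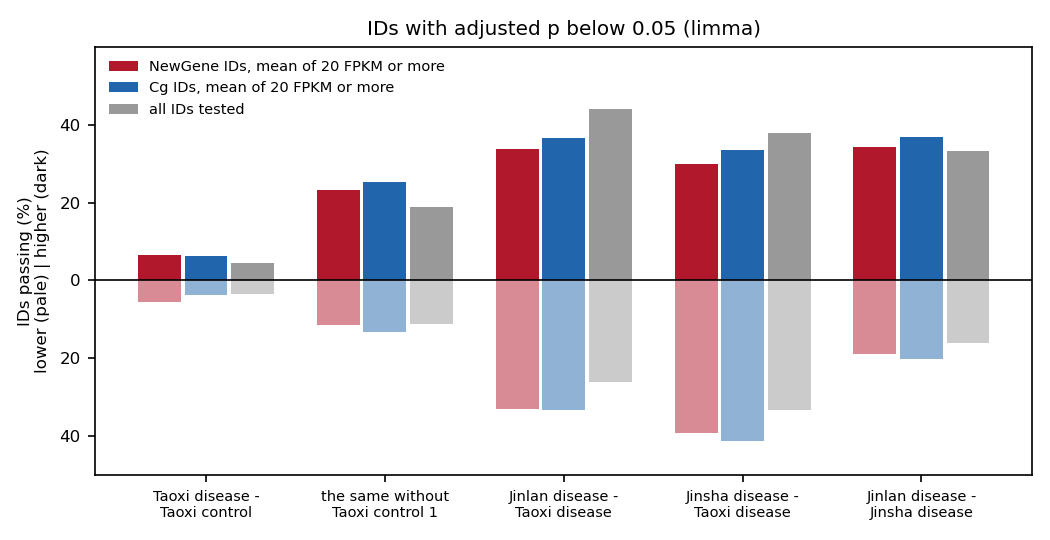
Percentage of IDs with an adjusted p below 0.05 (limma) in each comparison, higher (upward, dark) or lower (downward, pale), for the 184 NewGene loci, the 5891 Cg IDs at a mean of 20 FPKM or more (5890 of them tested) and all IDs tested. In each comparison the bars of the loci and of the Cg IDs lie within 4 percentage points of each other.

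The cultivars were then compared in diseased fruit, in a fit of the 9 diseased libraries, which does not hold Taoxi control 1. Both comparisons with Taoxi share the diseased Taoxi libraries. Between diseased Jinlan and diseased Taoxi 62 of the 184 loci were higher and 61 lower in Jinlan (limma, adjusted p below 0.05), 66.8% together, where 70.1% of all 17421 IDs tested passed, 44.0% higher and 26.2% lower. Of the Cg IDs at 20 FPKM or more 70.1% passed, with 2164 higher and 1963 lower. The median log2 difference was 0.01 over the loci, 0.03 over those Cg IDs and 0.15 over all IDs tested. At least 2-fold were 21 rises and 15 falls, 19.6% of the loci and 16.2% of those Cg IDs, where 11.4% and 8.37% of all IDs tested rose and fell that far.

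The balance depended on the scaling between libraries. Median-ratio scaling moved the median of all IDs by -0.15, and upper-quartile scaling by -0.09. With the former 44 loci were higher and 84 lower, and with the latter 48 and 72. Of the passing loci, 50.4% were thus higher in Jinlan without scaling, against 34.4% and 40%. Quantile normalization, which moved the median of all IDs by -0.11, gave 66 higher and 61 lower loci.

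NewGene_3937 differed most. It was at 70.8, 70.8 and 64.2 FPKM in diseased Jinlan, at 132, 102 and 94.3 FPKM in diseased Jinsha and at 0.0312, 0 and 0 FPKM in diseased Taoxi. Taoxi control libraries 2 and 3 held it at 0 and 0.0349 FPKM and Taoxi control 1 at 42.3 FPKM. Every Jinlan and Jinsha library was above every Taoxi library. The log2 fold change against diseased Taoxi was 6.11 for Jinlan (SE 0.11, adjusted p = 2.14e-10 by limma) and 6.75 for Jinsha (SE 0.11, adjusted p = 2.90e-10 by limma), sizes that depend on the 1 FPKM added before the logarithm.

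NewGene_3472 was at 93.7, 99.6 and 114 FPKM in diseased Jinlan and at 87.4, 132 and 161 FPKM in diseased Jinsha. In Taoxi it was at 1.94, 1.91 and 2.17 FPKM in diseased fruit, at 2.08 and 1.83 FPKM in controls 2 and 3 and at 93.9 FPKM in control 1. Apart from that control, Taoxi was low in both states. The log2 fold change against diseased Taoxi was 5.10 for Jinlan (SE 0.18, adjusted p = 9.55e-09 by limma) and 5.37 for Jinsha (SE 0.18, adjusted p = 6.10e-09 by limma).

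In the opposite direction, NewGene_1669 was at 83.7, 109 and 104 FPKM in diseased Taoxi and at 140 and 130 FPKM in Taoxi control libraries 2 and 3. It was at 0.859, 0.993 and 1.05 FPKM in diseased Jinlan, at 2.38, 1.74 and 1.29 FPKM in diseased Jinsha and at 18.8 FPKM in Taoxi control 1. The log2 fold change against diseased Taoxi was -5.66 for Jinlan (SE 0.14, adjusted p = 1.10e-09 by limma) and -5.17 for Jinsha (SE 0.14, adjusted p = 2.04e-09 by limma). NewGene_2698 was at 88.2, 96.0 and 85.2 FPKM in diseased Taoxi, at 1.01, 0.793 and 0.765 FPKM in the Jinlan libraries and, in Jinsha, at 2.84, 2.67 and 2.01 FPKM. It was at 82.9 and 71.3 FPKM in Taoxi control libraries 2 and 3 and at 10.5 FPKM in Taoxi control 1. Apart from that control, both loci were thus high in Taoxi and near 1 to 3 FPKM elsewhere. The log2 fold change of NewGene_2698 was -5.61 for Jinlan (SE 0.11, adjusted p = 2.14e-10 by limma) and -4.70 for Jinsha (SE 0.11, adjusted p = 6.47e-10 by limma).

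Between diseased Jinsha and diseased Taoxi 55 loci were higher and 72 lower in Jinsha (limma, adjusted p below 0.05), 69.0% together, where 71.0% of all IDs tested passed, 37.8% higher and 33.2% lower. Of the Cg IDs at 20 FPKM or more 74.7% passed, with 1969 higher and 2433 lower. The median log2 difference was -0.09 over the loci, -0.06 over those Cg IDs and 0.04 over all IDs tested. At least 2-fold were 26 rises and 18 falls, 23.9% of the loci against 18.3% of those Cg IDs, where the shares of all IDs tested were 11.7% and 8.75%. The loci with the largest rises and falls were the 4 named for Jinlan.

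Loci far apart between the cultivars were counted with Taoxi control taken from libraries 2 and 3. At 8 loci (4.35%) both Jinlan and Jinsha were at least 4-fold above both Taoxi states on the log2(FPKM + 1) scale, and at 7 loci (3.80%) both were at least 4-fold below. Of the Cg IDs at 20 FPKM or more the shares were 1.37% (81) and 1.43% (84). The 8 include NewGene_4110, which was at 361, 362 and 290 FPKM in Jinlan, at 204, 219 and 238 FPKM in Jinsha and at 5.90 to 11.2 FPKM in the Taoxi libraries other than Taoxi control 1. That library held it at 393 FPKM, above all Jinlan libraries. At the 7 loci high in Taoxi, Taoxi control 1 lay between the Taoxi and the other means in every case, and at the 8 low in Taoxi it did so at 5. These group means are descriptions, and the difference from the Cg IDs was not tested.

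Loci without signal in a group were few. Below 1 FPKM in every library of a group were 4 loci (2.17%) and 19 Cg IDs at 20 FPKM or more (0.323%), and no locus was listed at 0 in all libraries of a group. In all 4 the low group was Taoxi control, read from libraries 2 and 3, and NewGene_3937 was below 1 FPKM in diseased Taoxi too. NewGene_3240, NewGene_3937 and NewGene_4511 are described above. NewGene_4277, the fourth, was at 0.5004 and 0.252 FPKM in Taoxi control libraries 2 and 3 and at 48.7 FPKM in Taoxi control 1. Diseased Taoxi held it at 9.57, 4.44 and 16.2 FPKM, Jinlan at 71.4, 74.7 and 64.2 FPKM and Jinsha at 48.7, 35.7 and 36.7 FPKM. As in NewGene_3240 and NewGene_4511, diseased Taoxi 2 was the lowest and diseased Taoxi 3 the highest of the diseased Taoxi libraries. No locus was below 1 FPKM in every library of diseased Jinlan or of diseased Jinsha.

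The remaining comparison was diseased Jinlan against diseased Jinsha. In Jinlan 63 loci were higher and 35 lower (limma, adjusted p below 0.05), 53.3% together, where 49.1% of all IDs tested passed, 33.2% higher and 16.0% lower. Of the Cg IDs at 20 FPKM or more 57.1% passed. The median log2 difference was 0.11 over the loci, 0.10 over those Cg IDs and 0.11 over all IDs tested. Among differences of at least 2-fold, 1 locus was higher and 10 were lower in Jinlan, where 1.76% and 3.38% of all IDs tested were. Of the 5890 Cg IDs tested at 20 FPKM or more, 107 were higher and 253 lower by that much. Together these came to 5.98% of the loci and 6.11% of those Cg IDs. Of the passing loci 64.3% were higher in Jinlan, against 42.4% with median-ratio scaling (36 higher and 49 lower) and 51.1% with upper-quartile scaling (45 and 43). Quantile normalization left this share at 62.7% (64 and 38), and rescaling each library to the same total left it at 63.9% (62 and 35). Median-ratio scaling moved the median of all IDs by -0.11 here.

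NewGene_4574 was the locus higher by at least 2-fold in Jinlan. It was at 248, 262 and 224 FPKM in the Jinlan libraries and, in Jinsha, at 90.2, 82.6 and 110 FPKM, or 1.37 log2 units (SE 0.13, adjusted p = 2.93e-05 by limma). In Taoxi it was at 31.4, 30.1 and 40.2 FPKM in diseased fruit, at 15.5 and 11.3 FPKM in controls 2 and 3 and at 235 FPKM in control 1. With the spread estimated from all 12 libraries its adjusted p between Jinlan and Jinsha was 0.272 (limma). NewGene_805, given above, was next, at 42.6 ± 3.75 against 22.3 ± 0.55 FPKM (SD, n = 3), or 0.90 log2 units (SE 0.10, adjusted p = 8.83e-05 by limma).

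NewGene_1785 was lowest in Jinlan against Jinsha, at 23.4, 27.3 and 27.4 FPKM against 121, 102 and 130 FPKM. By limma the difference was -2.13 log2 units (SE 0.11, adjusted p = 1.18e-06). Diseased Taoxi held it at 152, 189 and 178 FPKM, so that Jinlan was the lowest of the diseased groups. Taoxi controls held it at 38.7, 126 and 105 FPKM. NewGene_1045 was at 5.32, 5.33 and 5.10 FPKM in the Jinlan libraries and, in Jinsha, at 21.1, 21.9 and 21.9 FPKM, or -1.86 log2 units (SE 0.06, adjusted p = 1.18e-07 by limma). Diseased Taoxi held it at 50.5, 56.4 and 55.7 FPKM, so that the diseased groups stood in the order Taoxi, Jinsha and Jinlan with no overlap. The Taoxi controls held it at 12.2, 59.9 and 53.7 FPKM, and Taoxi control 1 was thus below every Jinsha library.

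Which group was highest or lowest was spread over the loci much as over the Cg IDs. Taoxi control (libraries 2 and 3) was highest at 51 loci and lowest at 60, diseased Taoxi at 39 and 24, diseased Jinlan at 54 and 31, and diseased Jinsha at 40 and 69. The largest difference between these shares and those of the Cg IDs at 20 FPKM or more was in the loci lowest in Taoxi control, 32.6% against 35.4%.

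Loci with consecutive ID numbers were compared last. The NewGene numbers run from 1 to 4617, and 24 of the 184 loci form 12 pairs of consecutive numbers, with no longer run. What the numbers stand for is not given in the sources used here. Across the 11 libraries, Pearson's r of log2(FPKM + 1) within a pair had a median of 0.003 over the 12 pairs, from -0.873 to 0.791, and a median of 0.048 over all 16836 pairs of the 184 loci. These libraries share cultivars, so r is a description. NewGene_37 was at 12.8 ± 1.05 FPKM in diseased Taoxi and 32.2 ± 0.59 FPKM in Jinlan (SD, n = 3), while NewGene_38 was at 49.4 ± 4.61 and 48.0 ± 2.82 FPKM (SD, n = 3). NewGene_115 had a mean of 34.2 FPKM beside the 1059 FPKM of NewGene_116. NewGene_488 stood at 34.0 to 43.1 FPKM in every library, while NewGene_489 was at 54.3 ± 6.53 FPKM in Jinsha and 90.7 ± 1.93 FPKM in diseased Taoxi (SD, n = 3).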

How the data were processed

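RNA was measured in 12 libraries of pomelo fruit. The authors deposited FPKM values in a single table, per the file name and its values. The aligner, assembler, counting tool, genome build and gene models were not given in the sources used here; 6 columns whose names fit no labelled sample were left out. FPKM keeps no read totals. Whole-read steps were not found in low values (at most 1.59% of ratios in the commonest bin, 4 replicate pairs), so the depth is unknown and no counting interval is given.

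Tests covered the 17421 IDs that reached 1 FPKM in 3 or more of 12 libraries, as log2(FPKM + 1), without further scaling, with limma 3.58.1 in R 4.3.3 (one mean per group, mean-variance trend, Benjamini-Hochberg over all IDs tested, two-sided, threshold 0.05). The Taoxi comparison was fitted over all 12 libraries, and the cultivar comparisons over the 9 diseased ones. Differences given in log2 units use this scale and understate those of low levels. The model was tested on simulated data. Named loci are the highest 5 by mean, the 3 steadiest and the 3 most variable. Others are the 2 largest rises and falls per comparison among those that passed without overlap. Also named are those below 1 FPKM in a group and those nearest the threshold. Further ones fell below 20 FPKM without their highest library, hold the first consecutive ID numbers, or are those where Taoxi control 1 lay farthest out. None of the 184 loci repeats the values of another ID. The members and lists were chosen with earlier results of these data known. The alternatives were other pseudocounts, filters and scalings, other fits, a replicate block, other membership thresholds and leaving out each library. Figures were drawn with matplotlib 3.10.9.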

Additional observations from a re-analysis of the deposited data

How the results depend on the processing

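The depth behind each FPKM is unknown, and each group has 3 libraries. No locus named for a comparison changed sign under any alternative run. In the Taoxi comparison, 6.52% of the loci were higher and 5.43% lower in diseased fruit; both were 0% when only the groups compared were fitted, 2.17% and 0% at 2-fold or more. Leaving out 1 library gave 2.72% to 23.4% higher and 1.09% to 11.4% lower, the highest values without Taoxi control 1. These counts came to 5, 7 and 6 higher without diseased Taoxi 1, 2 and 3, and to 5 lower without Taoxi control 3 and 4, 2 and 2 without diseased Taoxi 1, 2 and 3. With the replicate block the share lower was 2.72% (5 loci, against 10); no other share moved by over 1.5 times under the block. The labels give same-numbered libraries of different groups no link other than the number. Their deviations from the group means correlated at -0.209 to 0.170, over 0.1 in 3 of 18 pairs. At 2-fold or more the shares were 11.4% higher and 8.15% lower in Jinlan against Taoxi, 14.1% and 9.78% in Jinsha against Taoxi, and 0.543% and 5.43% in Jinlan against Jinsha. In Jinlan against Jinsha 34.2% of the loci were higher and 19.0% lower; with the spread of all 12 libraries these were 20.1% and 8.70%, and with median-ratio scaling the share higher was 19.6%. Leaving out 1 library gave 29.9% to 32.1% higher and 14.1% to 18.5% lower there, 29.9% to 35.9% and 31.0% to 33.7% in Jinlan against Taoxi, and 27.2% to 30.4% and 36.4% to 44.0% in Jinsha against Taoxi. The cause of these changes was not tested. The other 112 values without a left-out library stayed within 1.5 times.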

Other observations

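A few loci differed between the diseased Jinlan replicates more than the rest, and the same libraries stood out at most of them. This was noticed after the data had been seen. In diseased Jinlan 7 of the 184 loci (3.80%) had a coefficient of variation of 20% or more, as did 150 of the 5891 Cg IDs at 20 FPKM or more (2.55%). Jinlan disease 2 was the lowest Jinlan library at all 7 loci, Taoxi disease 2 the highest diseased Taoxi library at 6 and Jinsha disease 2 the highest Jinsha library at 6. Among the 150 Cg IDs these counts were 109, 103 and 106. The counts were not taken over all 184 loci. Over all IDs tested, deviations from the group means correlated at -0.209 between Taoxi disease 2 and Jinlan disease 2. They correlated at -0.163 between Jinlan disease 2 and Jinsha disease 2, and at 0.021 between Taoxi disease 2 and Jinsha disease 2. Opposite deviations of Jinlan disease 2 were thus not confined to these loci. NewGene_436, the most abundant of the 7, was at 294, 167 and 336 FPKM in diseased Jinlan, at 181, 382 and 229 FPKM in diseased Taoxi and at 348, 413 and 290 FPKM in diseased Jinsha. NewGene_4515 was at 30.0, 17.2 and 31.1 FPKM in diseased Jinlan, at 17.1, 34.7 and 21.3 FPKM in diseased Taoxi and at 53.0, 63.7 and 44.1 FPKM in diseased Jinsha. NewGene_3111 had the widest spread in Jinlan, at 5.07, 1.70 and 3.98 FPKM. What these libraries share was not tested.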
